A study of Homo sapiens with 9 samples.

Results

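The expression of 32 genes of the NF-kappaB pathway was examined in HCT116 colon cancer cells that were induced to express an isoform of tazarotene-induced gene 1 (TIG1, gene symbol RARRES1). The genes were taken by name, with earlier results of these data known. They were NF-kappaB subunits, IkappaB proteins, the IkappaB kinase complex, adaptors and brakes, chemokines and cytokines, and other targets of the pathway. The annotation of the array gave 30 of them a probe set of their own, among 19775 genes with such a probe set, and each gene was read on its brightest probe set, that with the highest mean log2 intensity over all arrays. No value is given for BCL3, whose probe sets carry several gene symbols, or for TRAF2, which that annotation names on no probe set. Only probe sets at or above the array median on 2 or more arrays of some group were tested. In all 13353 genes were tested, 24 of the 32 among them. CXCL2, CXCL3, CCL20, IL6, IL32 and BCL2A1 did not reach this level.

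HCT116 is an epithelial colon cancer cell line. TIG1A cells carried the TIG1A isoform on pTIG1A-V5, TIG1B cells the TIG1B isoform on pTIG1B-V5, and control cells the empty vector pGene/V5, and each group was measured on 3 HG-U133 Plus 2.0 arrays. All 3 groups also carried pSwitch and had received 5 nM mifepristone (MFP) for 24 h. The regulator encoded by pSwitch joins a yeast GAL4 DNA-binding domain and a progesterone receptor ligand-binding domain to an activation domain of the human NF-kappaB subunit p65, the product of RELA, and whether the RELA probe sets detect its transcript was not tested. Each group was a single stable clone, so that the induced isoform and other differences between the clones cannot be told apart.

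NF-kappaB is a family of dimeric transcription factors built from the products of RELA, RELB, REL, NFKB1 and NFKB2. In resting cells the dimers are held in the cytoplasm by IkappaB proteins. Signals such as tumour necrosis factor activate the IkappaB kinase complex, which marks IkappaB proteins for destruction so that the dimers reach the nucleus and bind kappaB sites. Genes of inhibitors and brakes, including NFKBIA and TNFAIP3, are among the targets, and in the colon epithelium the pathway is known for its control of chemokines and of cell survival.

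The median intensity per array was 59.9 to 67.2 in TIG1A, 62.0 to 69.9 in TIG1B and 68.6 to 73.9 in control cells, so that every TIG1A median lay below every control median. The correlation of log2 intensities was 0.927 to 0.958 within groups and 0.904 to 0.950 between groups. The brightest RARRES1 probe set had intensities of 56400, 41200 and 45690 in TIG1A cells and of 27080, 19540 and 18600 in TIG1B cells, against 57.9, 48.8 and 4.80 in control cells. A second one had 36410 or more on every array of both lines and 5.18 or less in control cells. The third RARRES1 probe set stayed below the array medians on all 9 arrays, at 1.82 to 7.41 in TIG1A, 1.11 to 25.1 in TIG1B and 1.25 to 17.3 in control cells. The 5 epithelial markers EPCAM, KRT8, KRT18, KRT19 and CDH1 all reached the array medians. KRT19 was lower in both lines, 1.58-fold in each (adjusted p = 0.0267 in TIG1A and 0.0435 in TIG1B cells), and CDH1 was 1.51-fold higher in TIG1A cells (adjusted p = 0.0481). The epithelial intensities had sums of 107800 to 121100 in TIG1A, 105200 to 137100 in TIG1B and 118600 to 130900 in control cells. Of the markers of other cell types, 1 of 4 leukocyte genes (CD3E), 1 of 4 endothelial genes (PECAM1) and 1 of 5 fibroblast genes (COL1A1) did so. The fibroblast sum was 1428 to 1827 in TIG1A, 983.7 to 1069 in TIG1B and 543.7 to 875.8 in control cells, most of it from COL1A1, which was 2.79-fold higher in TIG1A cells (adjusted p = 0.0169). The leukocyte sum was 56.0 to 68.6 in TIG1A, 93.2 to 210.4 in TIG1B and 121.8 to 190.3 in control cells. The endothelial sum was 142.1 to 191.5 in TIG1A, 125.5 to 201.9 in TIG1B and 206.2 to 282.7 in control cells. The part of these markers in the results was not tested.

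Promoter sequence is shown for the 4 genes that passed the test in TIG1A cells, REL, NFKB1, NFKBIB and TNIP1, because each holds the kappaB consensus close to a start of transcription. The consensus searched was GGGRNNYYCC, with R for A or G, Y for C or T and N for any base. It was searched on both strands from 250 bases before to 50 bases after each start in RefSeq (GRCh38.p14). Overlapping matches were merged, and the match is in capitals below. For REL and NFKB1 the 100 bases before the start are given, and for NFKBIB and TNIP1, where the match belongs to a further start within the gene, 30 bases around it.
REL promoter, chr2:60881474-60881573, plus strand: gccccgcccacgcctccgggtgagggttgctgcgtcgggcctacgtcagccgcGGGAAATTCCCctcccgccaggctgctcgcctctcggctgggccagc
NFKB1 promoter, chr4:102501259-102501358, plus strand: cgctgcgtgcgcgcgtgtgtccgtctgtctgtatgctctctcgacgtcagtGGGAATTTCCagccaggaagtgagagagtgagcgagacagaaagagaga
NFKBIB promoter, chr19:38899931-38899960, plus strand: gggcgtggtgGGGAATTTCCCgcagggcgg
TNIP1 promoter, chr5:151081057-151081086, minus strand: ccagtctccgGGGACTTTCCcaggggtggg
The first base of the match lay 47 bases before the start in REL, 49 in NFKB1, 28 in NFKBIB and 42 in TNIP1. A match of letters is a description of the sequence and says nothing on binding in these cells.

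For contrast, the 100 bases before the start are given for NFKBIA, the best known feedback target of NF-kappaB, and for the neighbouring chemokine genes CXCL1, CXCL2 and CXCL3, of which CXCL1 was tested and did not pass and the others were below the filter.
NFKBIA promoter, chr14:35404750-35404849, minus strand: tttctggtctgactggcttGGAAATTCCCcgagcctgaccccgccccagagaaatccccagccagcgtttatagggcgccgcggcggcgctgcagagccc
CXCL1 promoter, chr4:73869293-73869392, plus strand: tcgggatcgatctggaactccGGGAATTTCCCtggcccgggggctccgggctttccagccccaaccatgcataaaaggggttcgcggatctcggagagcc
CXCL2 promoter, chr4:74099196-74099295, minus strand: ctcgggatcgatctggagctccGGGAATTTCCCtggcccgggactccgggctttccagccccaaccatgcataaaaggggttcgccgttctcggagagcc
CXCL3 promoter, chr4:74038690-74038789, minus strand: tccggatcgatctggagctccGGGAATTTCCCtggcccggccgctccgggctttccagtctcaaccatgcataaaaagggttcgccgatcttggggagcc
The match began 81 bases before the start in NFKBIA, 79 in CXCL1, 78 in CXCL2 and 79 in CXCL3, in near-identical surroundings in the 3 chemokine genes. Over all 28 of the 32 genes with an entry, 17 (60.7%) held the consensus in at least 1 window, against 3619 of 27305 genes (13.3%). The genes had 1.61 windows each against 1.29 over all genes, and by window the shares were 44.4% and 11.3%. These genes include known NF-kappaB targets, so a high share belongs to how the list was drawn up. By role the consensus was present in 4 of 4 IkappaB proteins, 3 of 4 subunits, 3 of 6 adaptors and brakes, 6 of 7 chemokines and cytokines, 1 of 5 other targets and 0 of 2 genes of the kinase complex. Sites that depart from the searched pattern were not counted, so a gene without a match is not shown to lack a kappaB site. The plot of promoter matches gives every position.

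**Figure D1:**
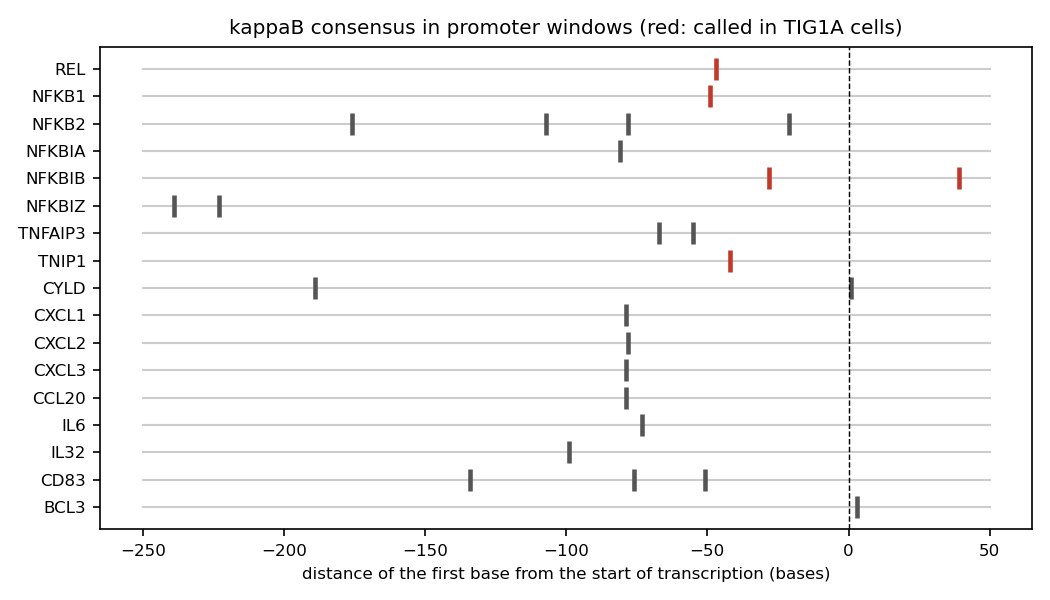
Positions of the kappaB consensus in the promoter windows of the 17 genes that hold it. The x axis is the distance in bases of the first base of a match from the start of transcription, each grey line is the searched window with all starts of a gene laid on one line, and red marks the 4 genes that passed the test in TIG1A cells, whose matches before the start lie 28 to 49 bases from it.

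In TIG1A cells REL was higher and NFKB1, NFKBIB and TNIP1 were lower than in control cells. These 4 genes of 24 (16.7%) passed limma's test at a Benjamini-Hochberg adjusted p below 0.05, with 1 higher and 3 lower. Over all 13353 genes 7.01% passed, of which 3.39% of genes were higher and 3.62% were lower. The arrays of TIG1A and control cells did not overlap for 11 of the 24 genes (45.8%), 3 higher and 8 lower, against 34.2% of all genes. The log2 change was positive for 8 genes and negative for 16, with a median of -0.31 against -0.030 over all genes. When each array was centred on its median instead, the median over all genes moved to 0.13, and the 24 genes then had 11 positive and 13 negative changes with a median of -0.14. Of the 24 genes, TRAF1 and CXCL1 reached the array medians in 2 of the groups and the other 22 in all of them.

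**Figure D2:**
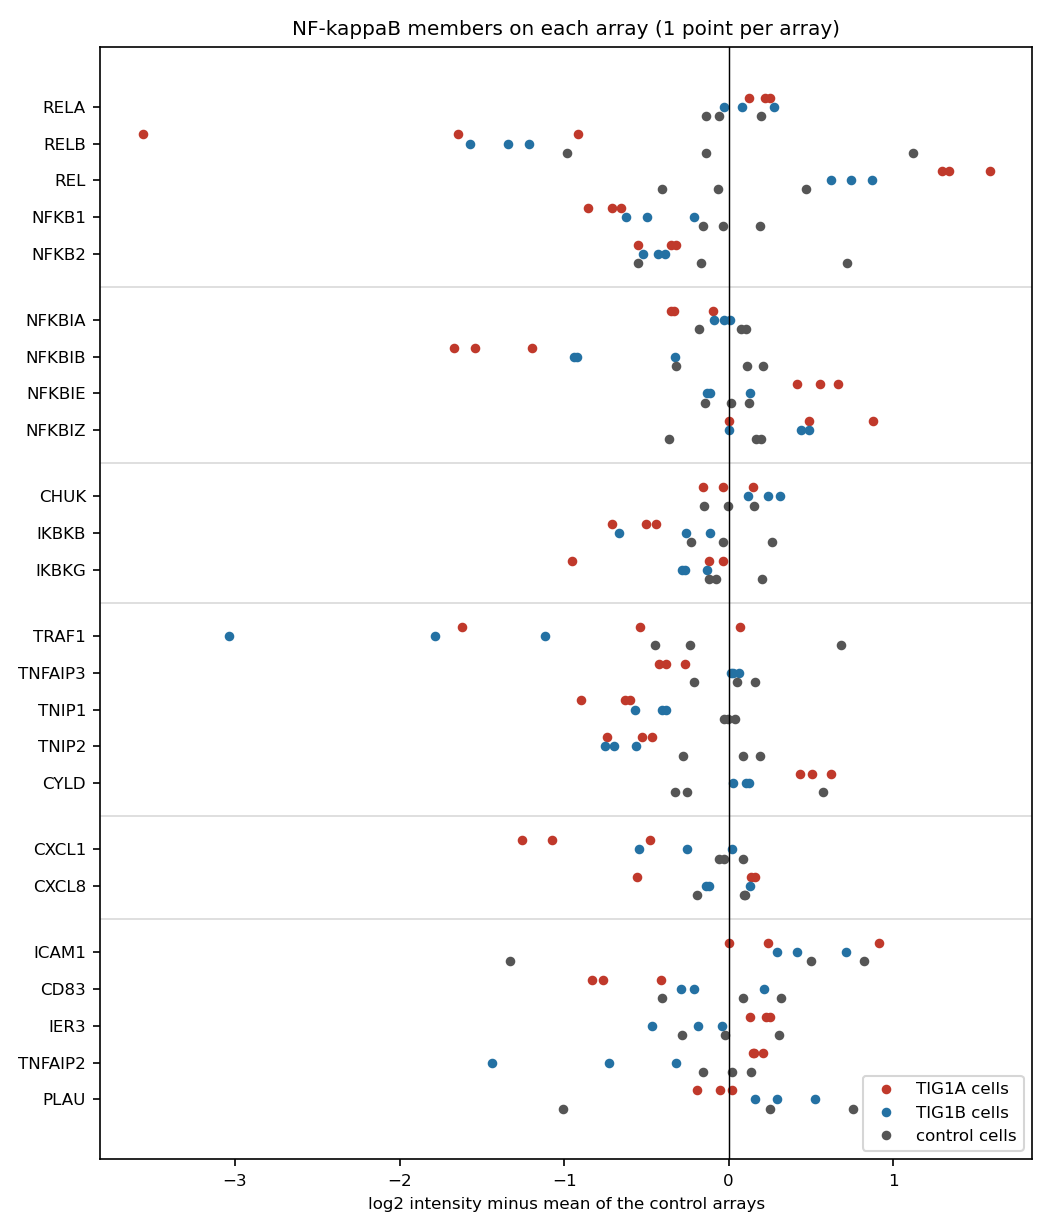
Log2 intensity of the 24 tested genes on each array, less the mean of the 3 control arrays (x axis), grouped by role from the subunits at the top to other targets at the bottom. Each point is 1 array of TIG1A (red), TIG1B (blue) or control cells (grey), and the red points of REL lie above 1 while those of NFKBIB lie below -1.

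Among the subunits, REL and NFKB1 changed in opposite directions in TIG1A cells. REL encodes c-Rel, the subunit best known from lymphocytes. Its intensity was 940.3, 969 and 1151 in TIG1A cells and 640.6, 701.7 and 590.6 in TIG1B cells, against 530.2, 289.8 and 366.3 in control cells. Every TIG1A array was above every TIG1B array, and every TIG1B array was above every control array. The log2 fold change was 1.41 with a standard error of 0.23 in TIG1A cells, a 2.65-fold rise (adjusted p = 0.0188, limma), and 0.75 in TIG1B cells, which did not pass (adjusted p = 0.141). REL (chr2:60881574-60931612) has 5 probe sets above the filter, and all of them had a positive change in both lines. A further 1 of them passed in TIG1A cells, with 601.7, 533.4 and 829.9 in TIG1A and 319.3, 409.4 and 465.8 in TIG1B cells against 275.6, 207.7 and 359.2 in control cells (log2 fold change of 1.23 in TIG1A cells, adjusted p = 0.0385). The REL probe sets ranked 4 and 5 in brightness reached the filter through TIG1A cells alone. A positive change in TIG1A cells was therefore favoured by the filter on these probe sets. On the probe set ranked 4 the log2 change in TIG1B cells was 0.051.

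NFKB1 (chr4:102501359-102617302) encodes p105, which is processed to the p50 subunit. Its intensity was 722.4, 830.1 and 798.1 in TIG1A cells and 1130, 926.1 and 847.3 in TIG1B cells, against 1171, 1275 and 1489 in control cells. No array of either line reached the control arrays. The change was -0.74 on the log2 scale with a standard error of 0.16 in TIG1A cells, or 1.67-fold lower (adjusted p = 0.0414), and -0.44 in TIG1B cells (adjusted p = 0.206). After median centring the TIG1A change no longer passed (-0.57, adjusted p = 0.0773).

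The remaining subunits did not pass in either line. RELA, the p65 subunit, had 8222, 8776 and 8992 in TIG1A cells and 7383, 9131 and 7977 in TIG1B cells, against 7229, 6867 and 8648 in control cells, and the groups overlapped. Its second probe set had 3078, 2783 and 2785 in TIG1A cells and 2874, 3193 and 3180 in TIG1B cells, against 4203, 4036 and 3416 in control cells, all lower than control. The RELA probe sets thus differed in direction, with log2 changes of 0.20 and -0.43 in TIG1A cells and 0.11 and -0.33 in TIG1B cells (adjusted p of 0.103 or more). RELB, the partner of the product of NFKB2 in the non-canonical pathway, had 130.3, 20.8 and 78.5 in TIG1A cells and 97.1, 105.9 and 82.7 in TIG1B cells, against 124.6, 223.3 and 533.6 in control cells. The control arrays of RELB were far apart, and the log2 change was -2.04 in TIG1A cells (adjusted p = 0.133) and -1.38 in TIG1B cells (adjusted p = 0.356). NFKB2, whose product p100 is processed to p52, had 953.8, 814.7 and 933.9 in TIG1A cells and 832.2, 886.8 and 910.8 in TIG1B cells, against 813.9, 1059 and 1965 in control cells. Control array 3 was the highest array for both RELB and NFKB2. Without it, the RELB change was -1.48 in TIG1A and -0.82 in TIG1B cells. The NFKB2 change on the brightest probe set was then -0.047 in TIG1A and -0.084 in TIG1B cells. On the second NFKB2 probe set above the filter, intensities were 328.4, 303 and 270.5 in TIG1A cells and 256.4, 280.4 and 259.4 in TIG1B cells. Control cells had 347.4, 416.1 and 660.5 there, each above all arrays of both lines. The log2 changes were -0.61 in TIG1A (adjusted p = 0.157) and -0.79 in TIG1B cells (adjusted p = 0.137).

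Among the IkappaB proteins, NFKBIB fell in TIG1A cells, while NFKBIE had the opposite sign. NFKBIB (chr19:38899666-38908889) encodes IkappaB-beta, which retains dimers of RELA and REL in the cytoplasm. Its intensity was 279.7, 388.1 and 305.3 in TIG1A cells and 708.3, 468.5 and 463.4 in TIG1B cells, against 711, 962.1 and 1027 in control cells. All TIG1A arrays lay below all TIG1B arrays, which lay below all control arrays, although TIG1B array 1 was close to control array 1. The log2 change was -1.47 with a standard error of 0.24 in TIG1A cells, 2.77-fold lower (adjusted p = 0.0189), and -0.73 in TIG1B cells (adjusted p = 0.161). This probe set is of the type that holds probes shared with other sequences. A second NFKBIB probe set without such probes had 202.2, 187.5 and 153.9 in TIG1A cells and 175.5, 161.6 and 163 in TIG1B cells, against 277.2, 292.6 and 410.8 in control cells. On that one the log2 change was -0.84 in TIG1A cells (adjusted p = 0.0440) and -0.95 in TIG1B cells (adjusted p = 0.0539). The third had changes of -1.60 and -1.82 and did not pass (adjusted p = 0.254 in TIG1A and 0.273 in TIG1B cells).

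The genes beside NFKBIB on chromosome 19 were also lower. Of the 20 nearest tested genes, 10 on either side from FAM98C to ZFP36, 4 had a positive change in TIG1A cells and 6 passed as lower, with a median log2 change of -0.47. In TIG1B cells the median was -0.32 and 3 passed as lower. For REL, NFKB1 and TNIP1 the corresponding medians in TIG1A cells were 0.074, 0.16 and -0.014. The part of this stretch of chromosome 19 in the NFKBIB result was not tested.

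NFKBIE, which encodes IkappaB-epsilon, had 989.6, 1087 and 1173 in TIG1A cells and 686.2, 810.9 and 675.9 in TIG1B cells, against 808.5, 671.2 and 749.5 in control cells. All TIG1A arrays were above all others, but the log2 change of 0.54 did not pass (adjusted p = 0.0665), nor did the difference of 0.58 between TIG1A and TIG1B cells (adjusted p = 0.159). Centring on the median or quantile normalisation placed NFKBIE below the threshold, at adjusted p = 0.0453 and 0.0467, and with centring NFKB1 and TNIP1 were lost, so that 3 of the 24 genes passed. NFKBIA, which encodes IkappaB-alpha, had 825.2, 698.7 and 690.2 in TIG1A cells and 863, 885.5 and 828.2 in TIG1B cells, against 946.6, 778.1 and 927.6 in control cells. The control arrays of NFKBIA overlapped both lines, and the TIG1A arrays all lay below the TIG1B arrays (log2 difference of -0.22, adjusted p = 0.558). Its 95% interval ran from -0.59 to 0.065 in TIG1A cells and from -0.36 to 0.29 in TIG1B cells on the log2 scale. NFKBIZ, which encodes the nuclear protein IkappaB-zeta, had 204, 286.3 and 375.1 in TIG1A cells and 204, 277 and 285.8 in TIG1B cells, against 158.7, 233.2 and 228.7 in control cells, and also overlapped.

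**Figure D3:**
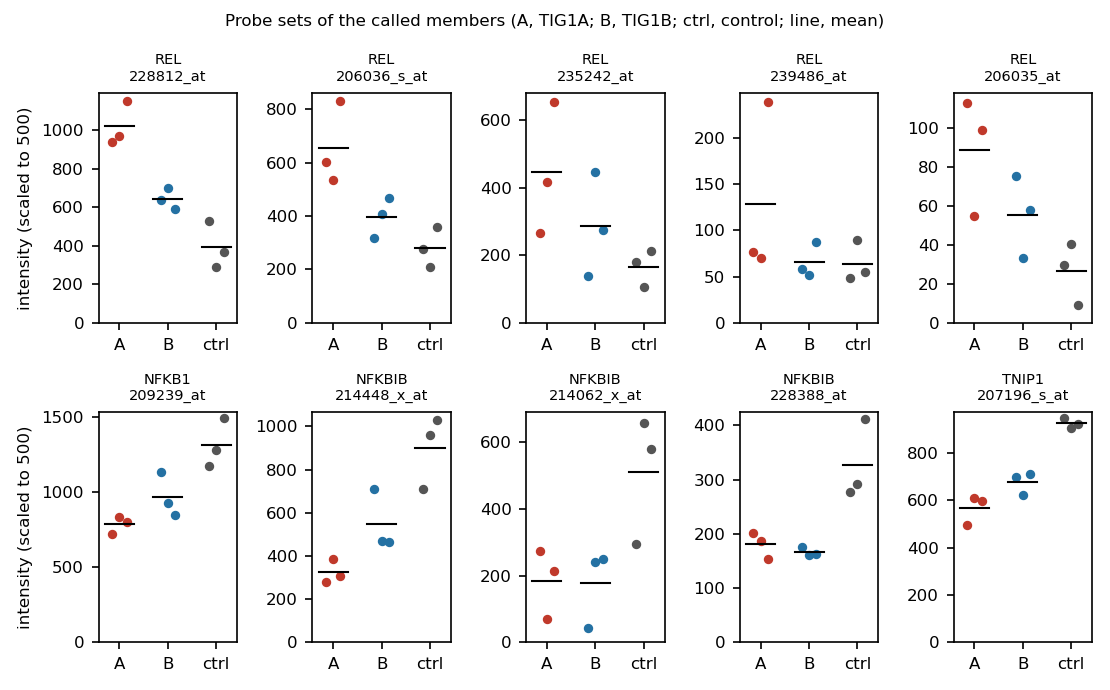
Intensities (y axis, deposited scale with a trimmed mean of 500 per array) on every probe set above the filter of the 4 genes that passed in TIG1A cells. Each point is 1 array and the line is the mean of 3. The first row holds the 5 probe sets of REL, highest in TIG1A cells on average, and the second row those of NFKB1, NFKBIB and TNIP1, which were highest in control cells. The REL probe sets ranked 4 and 5 in brightness reached the filter in TIG1A cells only.

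No gene of the IkappaB kinase complex passed. CHUK, the catalytic subunit IKK-alpha, had 2709, 3078 and 2499 in TIG1A cells and 3452, 3280 and 3019 in TIG1B cells, against 2502, 2772 and 3096 in control cells. IKBKB, the catalytic subunit IKK-beta, had 247.9, 285.4 and 298.5 in TIG1A cells and 373.9, 338.8 and 255.3 in TIG1B cells, against 345.6, 486.3 and 394.8 in control cells. The TIG1A arrays of IKBKB lay below the control arrays, on this probe set and on both others above the filter, with log2 changes of -0.55, -0.68 and -0.66 (adjusted p = 0.138, 0.150 and 0.145). IKBKG, the regulatory subunit NEMO, had 250, 471.5 and 445.3 in TIG1A cells and 402.6, 441.1 and 397.6 in TIG1B cells, against 457.3, 444 and 555.8 in control cells. TIG1A array 1 was the low array there, and the change of -0.37 in TIG1A cells did not pass (adjusted p = 0.395). The second IKBKG probe set had 390.5, 261.9 and 294.4 in TIG1A cells and 368.8, 338.4 and 333.1 in TIG1B cells. Control cells had 416.1, 475 and 475.7 on it, each above all arrays of both lines. Its log2 changes were -0.55 in TIG1A (adjusted p = 0.101) and -0.39 in TIG1B cells (adjusted p = 0.277).

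Among adaptors and brakes, TNIP1 fell in TIG1A cells. TNIP1 and TNIP2 bind TNFAIP3 (A20), an enzyme that edits ubiquitin chains and ends NF-kappaB signalling. TNIP1 (chr5:151029943-151087685) had 496.2, 610.9 and 597.3 in TIG1A cells and 698.1, 623.9 and 709.6 in TIG1B cells, against 949, 905.5 and 921.3 in control cells. The control arrays of TNIP1 were close to each other, and no array of either line came near them. Its log2 change was -0.71 with a standard error of 0.14 in TIG1A cells, 1.64-fold lower (adjusted p = 0.0293), and -0.45 in TIG1B cells (adjusted p = 0.137). Median centring placed the TIG1A change above the threshold (-0.54, adjusted p = 0.0808). TNIP2 had 839.5, 725 and 874.5 in TIG1A cells and 746.7, 816.3 and 716.8 in TIG1B cells, against 995.3, 1283 and 1381 in control cells. It was lower than control on every array of both lines, with a log2 change of -0.58 in TIG1A cells (adjusted p = 0.0799) and of -0.67 in TIG1B cells (adjusted p = 0.0892), neither of which passed. All 3 TNIP2 probe sets had the same sign in both lines, and their mean passed in both (adjusted p = 0.0411 in TIG1A and 0.0426 in TIG1B cells).

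TNFAIP3 itself had 394.2, 354.2 and 364.1 in TIG1A cells and 483.5, 496.1 and 479 in TIG1B cells, against 409.6, 530.4 and 492 in control cells. Its TIG1A arrays were the lowest, with a log2 change of -0.36 (adjusted p = 0.160) and of -0.93 on its second probe set (adjusted p = 0.0964). The mean of both TNFAIP3 probe sets passed in TIG1A cells (log2 change of -0.64, adjusted p = 0.0428). CYLD, a deubiquitinase that restrains the pathway, had 844.6, 739.4 and 777.5 in TIG1A cells and 597.3, 589.4 and 557.2 in TIG1B cells, against 437.8, 460.1 and 817 in control cells. Control array 3 lay among the TIG1A arrays of CYLD, and without it the log2 change in TIG1A cells was 0.81 (adjusted p = 0.0352) in place of 0.52 (adjusted p = 0.221). TRAF1, an adaptor of tumour necrosis factor receptors, had 74.99, 35.3 and 113.9 in TIG1A cells and 31.6, 13.2 and 50.1 in TIG1B cells, against 174.7, 79.6 and 92.5 in control cells. All TIG1B arrays of TRAF1 were below their array medians, so that the difference is given as at least 1.68-fold lower in TIG1B cells, measured against those medians (adjusted p = 0.140).

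Of the chemokines and cytokines only CXCL1 and CXCL8 were tested, and only CXCL8 was above the array median on all 9 arrays. CXCL1, a neutrophil attractant, had 59.0, 51.9 and 89.2 in TIG1A cells and 104, 85.1 and 125.9 in TIG1B cells, against 121.7, 119.4 and 131.8 in control cells. All TIG1A arrays of CXCL1 lay below the control arrays, and 1 of the 3 reached its array median. The log2 change of -0.94 in TIG1A cells did not pass (adjusted p = 0.0573), and that in TIG1B cells was -0.26 (adjusted p = 0.590). CXCL8, or interleukin-8, had 360.9, 354.3 and 219.5 in TIG1A cells and 297.1, 352.7 and 293.6 in TIG1B cells, against 282.3, 345.2 and 345.1 in control cells. The groups of CXCL8 overlapped, with 95% intervals of the log2 change from -0.60 to 0.42 in TIG1A and from -0.55 to 0.47 in TIG1B cells. The CXCL8 probe set is also of the type that holds probes shared with other sequences.

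Among the genes below the filter, CCL20, IL32 and BCL2A1 were under the array medians on all 9 arrays. CCL20, which attracts lymphocytes and dendritic cells, lay at 2.95 to 4.58 in TIG1A, 4.16 to 9.18 in TIG1B and 6.14 to 6.73 in control cells. IL32 lay at 3.44 to 3.91 in TIG1A, 6.62 to 11.9 in TIG1B and 5.56 to 11.8 in control cells. IL6 was at 31.5 to 70.3 in TIG1A, 7.38 to 47.2 in TIG1B and 18.7 to 72.5 in control cells. CXCL2 was at 39.7 to 109 in TIG1A, 33.9 to 64.1 in TIG1B and 11.6 to 70.1 in control cells, and CXCL3 at 29.0 to 76.1 in TIG1A, 11.6 to 85.5 in TIG1B and 66.5 to 78.9 in control cells. CXCL2, CXCL3 and IL6 each reached the median on at most 1 array of a group. BCL2A1, a survival gene of the BCL2 family, lay at 12.1 to 38.8 in TIG1A, 3.06 to 20.6 in TIG1B and 19.7 to 54.1 in control cells. The TIG1A ranges of CCL20 and IL32 lay below those of control cells, at values far below the array medians. These genes were left out of the fit used here, and at this signal no fold change is given.

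**Figure D4:**
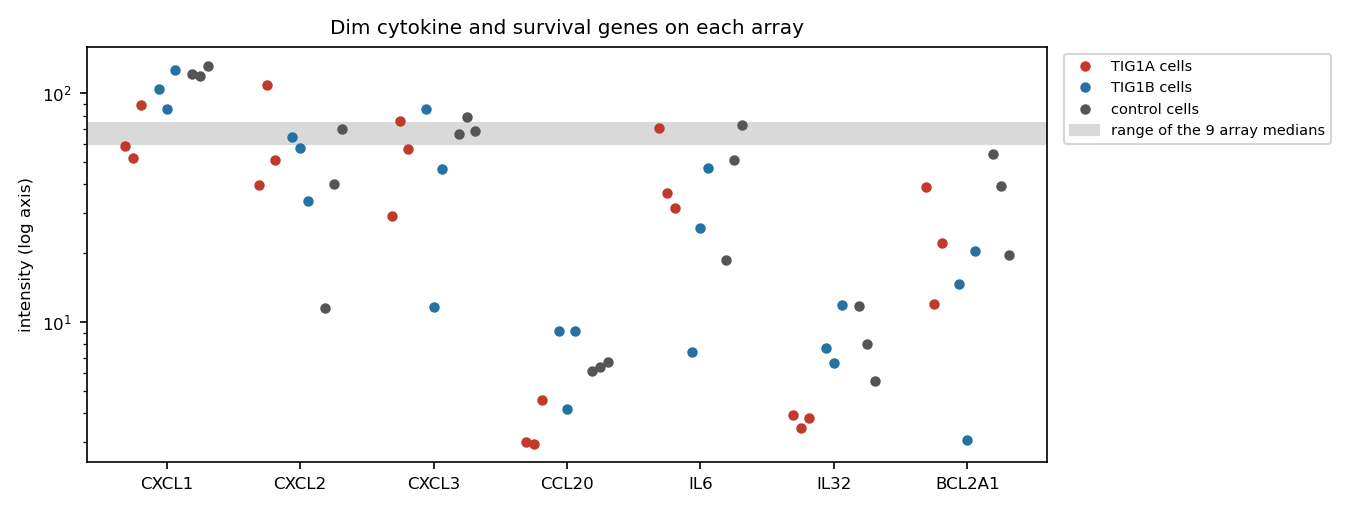
Intensities (y axis, log scale) of CXCL1 and of the 6 genes below the filter on each array, by gene (x axis). Points are single arrays of TIG1A (red), TIG1B (blue) and control cells (grey), and the grey band spans the 9 array medians, from 59.9 to 73.9. CXCL1 lies above the band in TIG1B and control cells, whereas CCL20 and IL32 lie far below it in every group.

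None of the other tested targets passed. CD83, a surface marker of activated immune cells, had 233.4, 245.3 and 312.6 in TIG1A cells and 482.5, 359.3 and 340.3 in TIG1B cells, against 314.4, 441.3 and 517.9 in control cells, with a log2 change of -0.67 in TIG1A cells (adjusted p = 0.132). TNFAIP2, a target of tumour necrosis factor, had 479.5, 462.4 and 460.5 in TIG1A cells and 153.3, 333.2 and 250.6 in TIG1B cells, against 372.8, 456.5 and 420.8 in control cells. TNFAIP2 was thus above every control array in TIG1A cells and below every control array in TIG1B cells, and the log2 difference of 1.00 between the lines did not pass (adjusted p = 0.182). Its dimmer probe set did not show this, with log2 changes of -1.33 for TIG1A (adjusted p = 0.416) and -1.55 for TIG1B cells (adjusted p = 0.421). ICAM1, an adhesion molecule for leukocytes, had 311.6, 194.5 and 165.5 in TIG1A cells and 270.6, 219.8 and 202.7 in TIG1B cells, against 292, 65.8 and 233.9 in control cells. IER3, an early response gene, had 13560, 13790 and 12680 in TIG1A cells and 10190, 11270 and 8381 in TIG1B cells, against 14300, 11410 and 9534 in control cells. PLAU, the urokinase plasminogen activator, had 974.7, 925.7 and 839.5 in TIG1A cells and 1178, 1382 and 1072 in TIG1B cells, against 1622, 1143 and 477 in control cells. For these last genes the control arrays enclosed all arrays of both lines except TIG1A array 1 of ICAM1 and TIG1B array 3 of IER3.

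**Figure D5:**
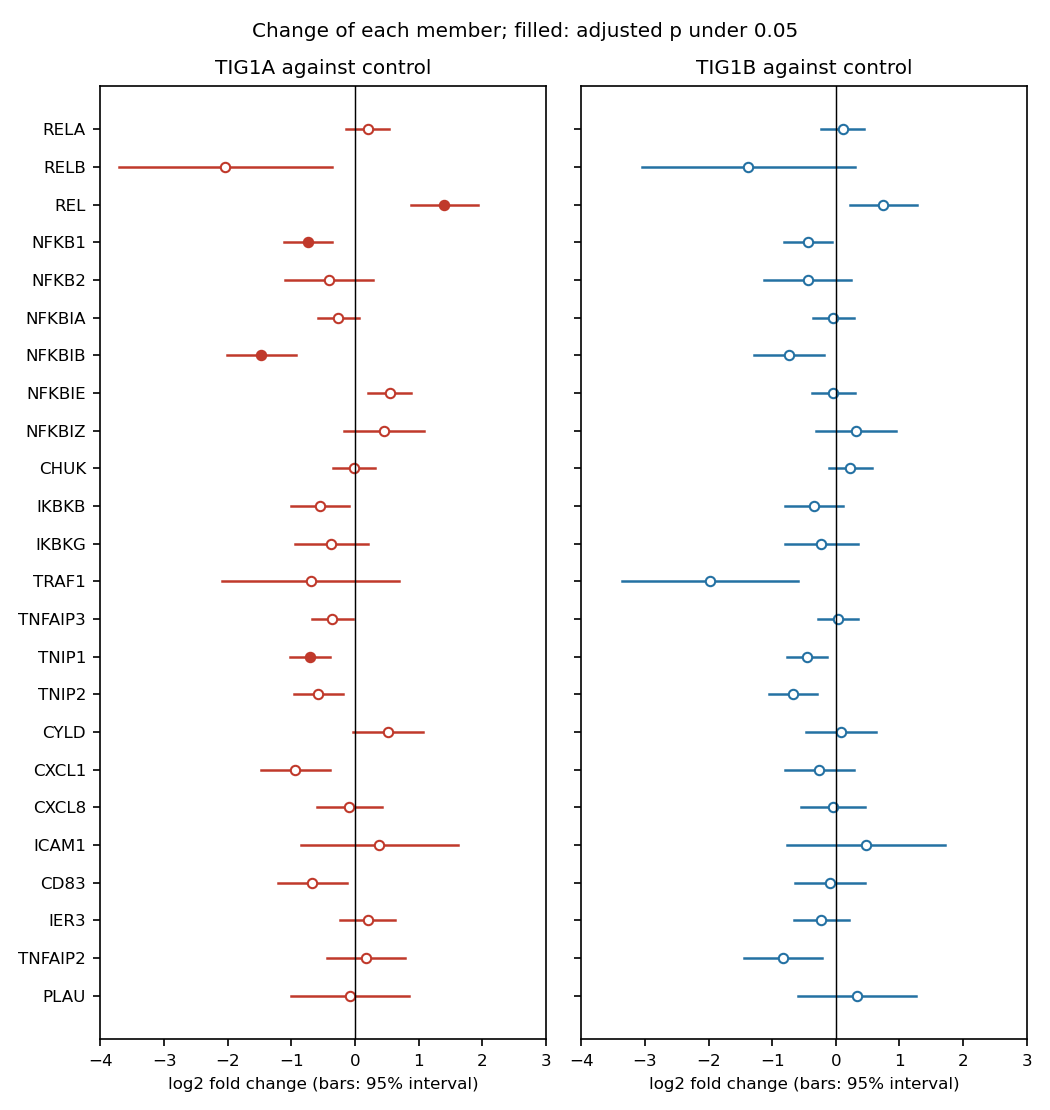
Log2 fold change against control cells (x axis) of the 24 tested genes in TIG1A (left, red) and TIG1B cells (right, blue), in the order of their roles. Bars are 95% intervals and filled points have an adjusted p below 0.05, which holds for REL, NFKB1, NFKBIB and TNIP1 in TIG1A cells and for none of the genes in TIG1B cells.

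In TIG1B cells 0 of the 24 genes passed limma's test, against 1.84% of all genes. At an unadjusted p below 0.05 there were 7 (1 higher, 6 lower), against 19.9% of all genes, and the 2-group test of the methods gave 6 unadjusted, against 17.1% of all genes, and 0 after adjustment. The lowest adjusted p was that of TNIP2 (0.0892). The arrays of TIG1B and control cells did not overlap for 9 genes (37.5%), 1 higher and 8 lower, against 26.8% of all genes, and the median log2 change was -0.16 against -0.011. Of the 24 changes 16 were negative as deposited and 12 after median centring, with a median of -0.014. On their brightest probe sets, the 4 genes that passed in TIG1A cells had the same sign and a smaller change in TIG1B cells. The other NFKBIB probe sets fell more in TIG1B than in TIG1A cells. Both comparisons use the same 3 control arrays. Between the lines 0 of the 24 genes passed, against 0.584% of all genes, with 8 at an unadjusted p below 0.05, against 15% of all genes, and 9 in the unadjusted 2-group test, against 19.7%. The arrays of TIG1A and TIG1B cells did not overlap for 12 genes (50%), against 28.4%. For REL the log2 difference of TIG1A from TIG1B cells was 0.66 (95% interval 0.14 to 1.19, adjusted p = 0.278) and for NFKBIB -0.74 (-1.29 to -0.19, adjusted p = 0.254). For NFKB1 it was -0.30 (-0.67 to 0.080, adjusted p = 0.495) and for TNIP1 -0.26 (-0.57 to 0.056, adjusted p = 0.476). The other NFKBIB probe sets had differences of the opposite sign, 0.11 and 0.22.

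The count of 4 in TIG1A cells depended on single arrays and on the error model. All 4 genes were lost without a filter, with the 6 arrays of the comparison alone, with the replicate number as a block, and with the 2-group test of the methods after adjustment. In these settings 0.108%, 0.554%, 2.12% and 0.404% of all probe sets passed, against 6.06% in the fit used here. The count was 0 without TIG1A array 2, TIG1A array 3 or control array 2, and 1 without TIG1A array 1 (REL). It was 2 without TIG1B array 2 or 3 (REL and NFKBIB). Without control array 3 it was 3 (REL, NFKBIB and CYLD), with NFKB1 and TNIP1 lost. Without control array 1 it was 5, the same 4 genes and TNIP2. Of all probe sets, 0.987%, 0.851% and 1.1% passed without TIG1A array 2, TIG1A array 3 and control array 2. The share was 2.56% without TIG1A array 1, and 2.65% and 2.4% without TIG1B array 2 and 3. Without control array 3 it was 3.3%, and without control array 1 it was 9.34%. The direction of all 4 genes was kept in each of the 20 alternative settings tried, with log2 changes of 1.21 to 1.64 for REL and of -1.63 to -1.30 for NFKBIB. NFKB1 ranged from -0.82 to -0.57 and TNIP1 from -0.76 to -0.54. A change of filter, error model, test or block, the 6 arrays alone, or a TIG1B array left out cannot alter these log2 changes. The direction could therefore move only with another normalisation, offset or probe set rule, or without a TIG1A or control array.

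Further genes of the pathway, 68 in number, were set beside these. Of the 63 with a probe set 49 were tested, and no value is given for RIPK1, IRAK4, ZC3H12A, BIRC3 and CSF2. In TIG1A cells 5 of 49 (10.2%) passed, against 7.01% of all genes, with SHARPIN, TAX1BP1 and SOD2 higher and MALT1 and SDC4 lower. In TIG1B cells 4 of 49 (8.16%) passed, against 1.84%, with BIRC2 and SOD2 higher and LTBR and LIF lower. Between the lines 0 of 49 passed, with 12 at an unadjusted p below 0.05 (15% of all genes).

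Of the signal transducers, SHARPIN, a component of the linear ubiquitin chain assembly complex, had 1356, 1039 and 948.7 in TIG1A cells and 1047, 811.3 and 911.7 in TIG1B cells, against 498.5, 595.9 and 572.8 in control cells. Its log2 change was 0.99 in TIG1A cells (adjusted p = 0.0264) and 0.73 in TIG1B cells (adjusted p = 0.0921). The 20 tested genes around SHARPIN had a median log2 change of 0.40 in TIG1A cells, with 15 positive and 4 that passed as higher, and of 0.026 in TIG1B cells. MALT1, a paracaspase downstream of antigen receptors, had 883, 909.6 and 869.7 in TIG1A cells and 1353, 1111 and 1168 in TIG1B cells, against 1242, 1288 and 1334 in control cells, and its log2 change of -0.54 in TIG1A cells passed narrowly (adjusted p = 0.0497). BIRC2, the ubiquitin ligase cIAP1, had 7092, 8438 and 8216 in TIG1A cells and 8993, 10470 and 9307 in TIG1B cells, against 6143, 5322 and 5386 in control cells. Both lines were above control for BIRC2, with log2 changes of 0.49 in TIG1A (adjusted p = 0.0766) and 0.77 in TIG1B cells (adjusted p = 0.0423). In TIG1B cells 17 of the 20 genes around BIRC2 also had a positive change, with a median of 0.44. The part of these neighbourhoods was not tested.

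LTBR, the lymphotoxin-beta receptor that starts the non-canonical pathway, had 753.7, 779.5 and 709.2 in TIG1A cells and 544.6, 504.9 and 609.4 in TIG1B cells, against 1105, 989.2 and 898.5 in control cells. It was lower than control on every array of both lines, with log2 changes of -0.41 in TIG1A (adjusted p = 0.119) and -0.85 in TIG1B cells (adjusted p = 0.0346). Of the further brakes, TAX1BP1, a ubiquitin-binding partner of A20, had 8520, 8182 and 8195 in TIG1A cells and 8645, 7840 and 7025 in TIG1B cells, against 5741, 5403 and 5927 in control cells. Its log2 change was 0.55 in TIG1A cells (adjusted p = 0.0495) and 0.46 in TIG1B cells (adjusted p = 0.121), and its dimmest probe set had the opposite sign (-0.20 and -0.23).

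Of the further targets, SOD2, the mitochondrial superoxide dismutase, passed in both lines, on a probe set whose name rests on the array annotation alone. This probe set was 2.79-fold higher in TIG1A cells (adjusted p = 0.00635) and 2.27-fold higher in TIG1B cells (adjusted p = 0.0139). No other probe set carries SOD2 as its only symbol in the annotation, and probe sets with several symbols were not read. The authors list the probe set used here as a transcribed locus without a gene symbol. SDC4, the surface proteoglycan syndecan-4, had 1563, 1929 and 1808 in TIG1A cells and 2555, 3132 and 2824 in TIG1B cells, against 4946, 3743 and 3916 in control cells. The 3 groups were fully apart for SDC4, and the log2 change was -1.24 in TIG1A cells (adjusted p = 0.0124) and -0.56 in TIG1B cells (adjusted p = 0.134). LIF, a cytokine of the interleukin-6 family, had 227.8, 251.1 and 296.5 in TIG1A cells and 178.4, 199 and 146.8 in TIG1B cells, against 376.5, 367.4 and 301.8 in control cells. LIF was 2.00-fold lower in TIG1B cells (adjusted p = 0.0417), and in TIG1A cells the log2 change of -0.43 did not pass (adjusted p = 0.180). After median centring neither LIF nor LTBR passed in TIG1B cells, which left BIRC2 and SOD2, both higher. With single arrays left out, the count of 5 further genes in TIG1A cells became 1 without TIG1A array 3, 2 without TIG1A array 1 or 2, TIG1B array 3 or control array 2, 3 without TIG1B array 2 or control array 3, and 9 without control array 1. The count of 4 in TIG1B cells became 0 without TIG1B array 1 or 2, and 1 without TIG1B array 3, control array 2 or 3, or any TIG1A array. Over all probe sets, 6.06% passed in TIG1A and 1.78% in TIG1B cells with all arrays. With 1 array left out, these shares were 0.851% to 9.34% in TIG1A and 0.197% to 3.47% in TIG1B cells. SOD2 passed in TIG1A cells whichever array was left out.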

How the data were processed

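The authors deposited 1 linear intensity for each probe set and array, obtained in GeneChip Operating System 1.1.1 with global scaling, and the trimmed mean of every array was checked to be 500. No raw scan or detection call entered the analysis, and the filter on the array median took the place of the Present calls named in the methods. Labels and methods give 5 nM MFP for 24 h, and the series text gives 5 micromolar overnight. The methods name 3 independent samples per group. The 62 control probe sets of 54675 were left out, intensities below 1 were set to 1, and log2 values of 29977 probe sets that reached the array median on at least 2 arrays of a group were fitted with 1 mean per group in limma 3.58.1 (R 4.3.3). P-values were adjusted over all probe sets by the Benjamini-Hochberg procedure. The model was tested on simulated data. Probe sets with 1 symbol in the array annotation (41097) were named, and those with several (1801) or none (11777) were not.

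The 32 genes and all lists were chosen with earlier results of these data known. Named were all 32 genes, further probe sets where a call differed, and every other pathway gene that passed in either line, up to 5 per list. Further probe sets of RELA, NFKB2, IKBKB, IKBKG, TNIP2, TNFAIP3, TNFAIP2 and TAX1BP1, the third of NFKBIB, and the neighbouring genes were named after their values were seen. Coordinates and promoter sequences are from RefSeq (GRCh38.p14). Intervals are at 95%. Alternatives were another normalisation, offset, filter, set of arrays, variance model, test or probe set rule, the replicate number as a block, and each array left out in turn. Precision is limited by the 3 arrays per group.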

Additional observations from a re-analysis of the deposited data

How the results depend on the processing

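The counts of genes that passed moved with the filter and the error model. Without a filter, 0 of the 30 genes with a probe set passed in TIG1A cells. Of the further pathway genes 1 passed in TIG1A and 0 in TIG1B cells, against 0.108% and 0.0201% of all probe sets. With the filter at the 75th percentile, where 17 of the 32 genes and 35 further genes were tested, 7 passed in TIG1A cells, 5 in TIG1B cells and 2 between the lines (NFKBIE and TNFAIP2), with 11 further genes in TIG1A and 8 in TIG1B cells, against 24.3%, 12.1% and 4.56% of all probe sets. With the 6 arrays of a comparison alone the counts were 0 in TIG1A cells and 1 and 0 for further genes in TIG1A and TIG1B cells. The shares of all probe sets were then 0.554% in TIG1A and 0.05% in TIG1B cells. Trend and robust options gave 1 in TIG1B cells (TNIP2), with 10 and 8 further genes, against 11.9% of all probe sets in TIG1A and 5.21% in TIG1B cells. The methods' 2-group test gave 0 in TIG1A cells after adjustment, with 2 and 0 further genes, against 0.404% of all probe sets in TIG1A and 0.02% in TIG1B cells. Unadjusted it gave 9, 6 and 9 in TIG1A cells, in TIG1B cells and between the lines, against 20.5%, 15.3% and 15.9% of all probe sets. The further genes were then 15 in TIG1A and 11 in TIG1B cells. The mean over probe sets gave 7 in TIG1A and 1 in TIG1B cells (7.94% and 2.59% of all genes), and median centring 2 further genes in TIG1B cells (1.19% of all probe sets). The cause of these moves was not tested, and some settings also left another number of genes or arrays. Quantile normalisation and the offset of 50 changed the counts by less than 1.5 times. Over all probe sets, the share of passing probe sets that were higher was 47.2% in TIG1A and 39.3% in TIG1B cells as deposited, 78.1% and 70.5% after median centring, and 52.8% and 47.4% after quantile normalisation.

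Leaving out single arrays gave counts of 0 to 5 in TIG1A cells, 0 to 2 in TIG1B cells (2 without control array 1, REL and TNIP2) and 0 between the lines. For further genes they were 1 to 9 in TIG1A and 0 to 4 in TIG1B cells. The shares of all probe sets were 0.851% to 9.34% in TIG1A cells, 0.197% to 3.47% in TIG1B cells and 0% to 0.51% between the lines.

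The replicate numbers did not pair the arrays of either line with those of control cells. The deviations of same-numbered arrays correlated at -0.00053 to 0.0085 between TIG1A and control, -0.037 to 0.0082 between TIG1B and control and 0.049 to 0.19 between TIG1A and TIG1B cells. Different-numbered arrays of TIG1A and TIG1B cells correlated at -0.126 to 0.0895. The value of 0.19 was that of array 1 of each line. With the number as a block, 0 of the 24 tested genes passed in TIG1A cells (REL at adjusted p = 0.0525), 0 in TIG1B cells and 0 between the lines. The shares of all probe sets were 2.12%, 0.00667% and 0%. Of further genes 2 passed in TIG1A and 0 in TIG1B cells.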
